A study of Homo sapiens with 24 samples.

Results

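SR proteins and heterogeneous nuclear ribonucleoproteins (hnRNPs) are the 2 large families of RNA-binding proteins that set which exons are kept in a transcript, and their transcripts were followed here in MCF10A breast epithelial cells. Members were the genes of the count table named SRSF or HNRNP with a number or letter code, plus TRA2A and TRA2B, without pseudogenes and with at least 240 counts over all libraries. The rule found 35 of the 59251 genes in the table, 14 SR protein genes and 21 hnRNP genes, and all 35 passed the filter on low counts. The members nearest the minimum were SRSF12 with 2047 counts in all and SRSF8 with 39210. Below it were HNRNPH2 with 34 counts, HNRNPCL3 and HNRNPCL4 with 15 each, HNRNPCL1 with 1 and HNRNPCL2 with 0. The row for HNRNPH2 cannot be read as its level, since 362 of its 2223 annotated exonic bases also belong to the readthrough gene RPL36A-HNRNPH2 on the same strand and no source used here states how such bases were counted.

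MCF10A is an established, non-tumorigenic line of human mammary epithelium. The series used 2 of its derivatives, PE, described in the labels as non-transformed, and PM, described as transformed by MYC, and asked what loss of the chromatin remodeller CHD1 does in each. PE and PM cells carried a short hairpin RNA against GFP as the control, CHD1 hairpin A or CHD1 hairpin B. All 6 groups, controls included, were given 50 ng/ml of doxycycline for 72 h before poly(A) RNA was sequenced, and each group held 4 libraries labelled as biological replicates. Whether these came from separate cultures is not described further, so p-values measure the spread between libraries, which may be technical in part. Each state was 1 line, so a difference between PM and PE is a difference between 2 lines and cannot be told apart from other differences between them.

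SR proteins bind exonic enhancer sequences through RNA recognition motifs and recruit the spliceosome through a domain rich in arginine and serine, which kinases phosphorylate. hnRNPs coat nascent transcripts, often oppose SR proteins at splice sites, and act also in polyadenylation, export, stability and translation of mRNA. Both families commonly control their own level by alternative splicing that brings a stop codon or a cassette exon into a transcript degraded by nonsense-mediated decay, and several members, SRSF1 among them, are known as targets of MYC. In the GENCODE v29 annotation of GRCh38, 27 of the 34 members with exons in it had at least 1 transcript marked for nonsense-mediated decay, or 79.4%, against 7118 of 19969 protein-coding genes, or 35.6%. A retained-intron transcript was annotated for 25 of 34 members, or 73.5%, against 9214 of 19969 protein-coding genes, or 46.1%. Counts per gene add such transcripts to the coding ones, so a change in a member's count is not a change in its protein-coding transcript alone.

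In bulk RNA a lower level per cell and fewer cells that express a gene cannot be told apart. The median library held 49.5 M counts, the smallest 4.14 M and the largest 93.3 M. Levels are given in CPM, counts relative to the library's total after TMM scaling, and changes as log2 differences from edgeR's quasi-likelihood fit, with p-values adjusted by Benjamini and Hochberg over 20820 genes and a threshold of 0.05. CHD1 was at 78.8 ± 5.53 CPM (SD, n = 4) with the GFP hairpin in PE and at 90.0 ± 5.18 in PM. It fell under both hairpins, to 29.2 ± 1.2 and 28.1 ± 3.07 CPM in PE and to 31 ± 2.76 and 29.5 ± 5.4 in PM for hairpins A and B. MYC stood at 275 ± 17.7 CPM in PE and 518 ± 27.4 in PM with the GFP hairpin. General epithelial markers summed to between 1985 and 2922 CPM in every library, and basal epithelial markers to between 1239 and 4898. Markers of other cell types were much lower, at 14.1 to 66.5 CPM for fibroblasts (4 of 7 genes averaging 1 CPM or more), 0.607 to 15.2 for endothelium (1 of 5) and 36.1 to 85.5 for immune cells (2 of 6), where PTPRC, the general leukocyte marker, reached at most 1.11 CPM. Several of these lists moved with the groups. The basal sum ran from 3061 to 4898 CPM in PE controls, 2278 to 3568 with hairpin A and 1239 to 1920 with hairpin B, and in PM from 2711 to 3784, 1643 to 1815 and 2201 to 2653 in the same order. Under both hairpins 3 of 8 basal markers were lower in PE, and 4 lower and 1 higher in PM, while of 6 general epithelial markers tested 1 was higher and 2 lower in PE, and in PM 1 was higher and 1 lower with hairpin A. The part of any of these lists in the results was not tested. 3 libraries stood apart: replicate 1 of the GFP hairpin in PE had the lowest total, replicate 3 of hairpin B in PM the most genes detected (33137), and replicate 4 of hairpin A in PM 19514 genes detected.

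The members' levels covered a wide range in the control cells. Per kilobase of annotated exon, HNRNPA1, which binds exonic silencers, was highest with the GFP hairpin in both lines, at 316 ± 18.5 CPM per kilobase in PE (SD, n = 4). HNRNPAB, HNRNPK, HNRNPA2B1 and SRSF1 followed in PE at 242, 170, 158 and 129 CPM per kilobase. HNRNPK and HNRNPA2B1 were neighbours whose ranges overlapped in both lines, and in PM they stood at 189.3 and 189.2 CPM per kilobase. At the low end in PE stood SRSF8 at 6.66, HNRNPUL2 at 6.00, HNRNPLL at 5.44 and SRSF12 at 0.339 CPM per kilobase, and SRSF12 was lowest in PM too, at 0.673. SRSF12, a splicing repressor of restricted expression, had between 4 and 239 counts in a library, with a median of 74.5. HNRNPA1L3 has no exons in the annotation and was left out of this scale, and the exon lengths may differ from those the authors counted on. The length joins the exons of all annotated transcripts of a gene, retained-intron ones included, and is not the length of its mRNA. HNRNPU, with 22512 such bases, was at 833 CPM in PE controls but at 37.0 CPM per kilobase. The order is therefore not a ranking of transcript number.

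**Figure D1:**
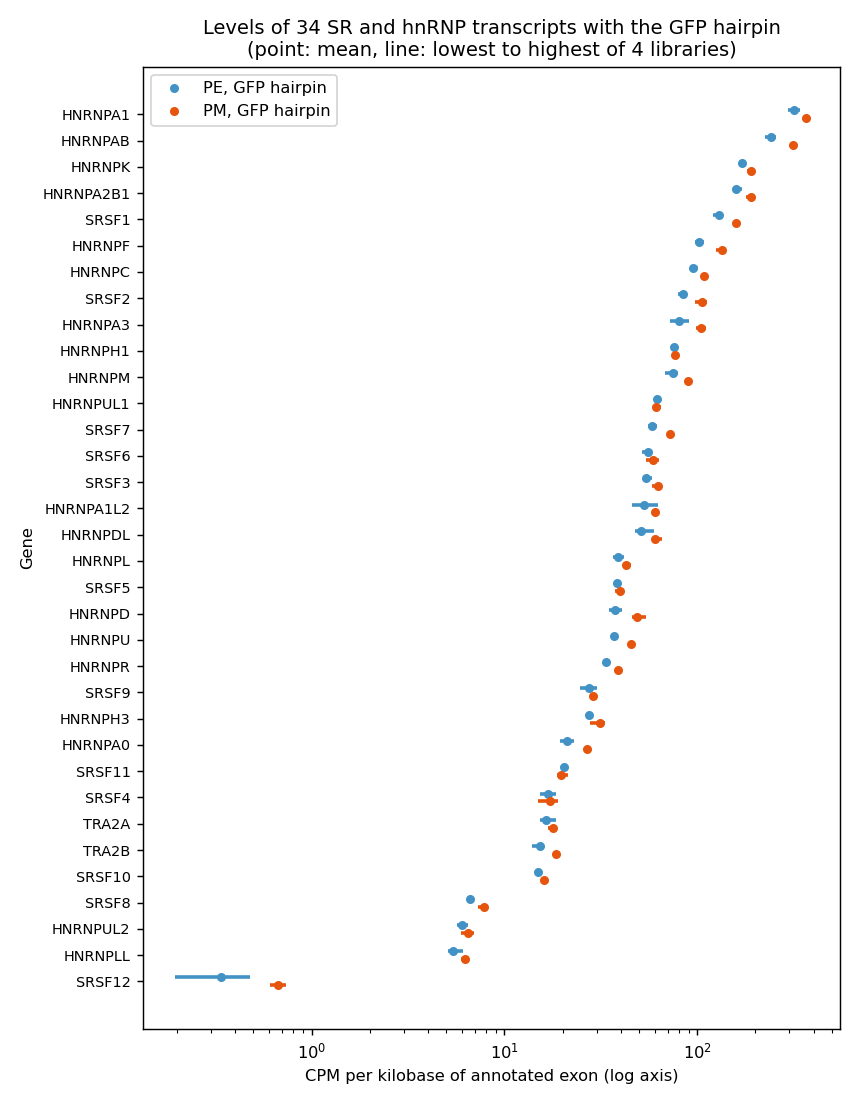
Level of 34 SR and hnRNP transcripts with the GFP hairpin in PE and PM, in CPM per kilobase of annotated exon on a log axis; points are means and lines run from the lowest to the highest of 4 libraries. HNRNPA1 is highest, at 316 CPM per kilobase in PE and 366 in PM, and SRSF12 is lowest, at 0.339 and 0.673.

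With the GFP hairpin, both families stood higher in the MYC-transformed line. 20 of the 35 members were higher in PM than in PE and 0 were lower, where 14.1% of all genes tested were called higher and 11.4% lower, 25.5% in all. The members' median difference was 0.21 on the log2 scale, against 0.02 over all genes, and 33 of 35 members were above 0. By family, 6 of 14 SR protein genes and 14 of 21 hnRNP genes rose. For lower members, edgeR at an unadjusted p under 0.05, DESeq2 and limma-voom each gave 0 as well, and DESeq2 and limma-voom called 17 and 20 higher. The calls of HNRNPH3, HNRNPK and HNRNPDL were lost in 25, 24 and 22 of 33 other settings. Between the same control groups 3 of 8 basal markers were lower and 3 of 6 general epithelial markers higher in PM, and the immune sum ran from 64.8 to 76.1 CPM in PE and 51.7 to 55.2 in PM, the fibroblast sum from 50.4 to 64.4 and 19.6 to 42.2, and the endothelial sum from 8.78 to 11.3 and 0.607 to 2.89. Their part in the difference was not tested.

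HNRNPF, which binds runs of G near splice sites, had the largest log2 difference between the lines among the hnRNPs. Its CPM was 315, 327, 329 and 351 in the 4 PE libraries and 431, 444, 406 and 460 in the 4 PM libraries. All PM libraries lay above all PE libraries, a log2 difference of 0.40 (SE 0.06, edgeR adjusted p = 1.18e-05). HNRNPA3, a paralog of HNRNPA2B1, read 433, 546, 483 and 482 CPM in PE and 615, 668, 634 and 590 in PM. Here too the groups did not overlap, with a log2 difference of 0.37 (edgeR adjusted p = 7.28e-05). HNRNPAB, which binds AU-rich and other single-stranded sequences, rose from 482, 551, 496 and 544 CPM to 668, 702, 658 and 666, by 0.38 (SE 0.08, edgeR adjusted p = 0.000838).

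HNRNPD, also called AUF1 and known for binding AU-rich elements of unstable mRNAs, was at 242, 262, 262 and 284 CPM in PE and 319, 338, 330 and 377 in PM. Again no PE library reached the lowest PM library, and the log2 difference was 0.38 (SE 0.06, edgeR adjusted p = 1.29e-05). Among SR proteins, SRSF7, an export adaptor that also controls poly(A) site choice, stood at 228, 237, 225 and 248 CPM in PE and at 301, 299, 283 and 283 in PM, 0.31 higher (edgeR adjusted p = 8.63e-05). SRSF2 and SRSF1, the founding enhancer-binding members, were higher by 0.32 and 0.31, and TRA2B, a sequence-specific activator, by 0.28. SRSF12 had the highest log2 difference of the family, 0.91 (SE 0.33, edgeR adjusted p = 0.0384), from 0.89, 1.7, 1.39 and 2.19 CPM in PE and 3.35, 2.76, 2.96 and 3.17 in PM. Those groups did not overlap, yet the call was lost in 11 of 32 other settings, among them leaving out any 1 of the 4 PM control libraries or replicate 1, 2 or 3 of the PE controls.

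Of the 15 members that did not pass, 8 were SR protein genes. SRSF4, SRSF5 and SRSF9 differed by 0.05, 0.05 and 0.06 on the log2 scale, SRSF11 by -0.05, HNRNPH1 by 0.03 and HNRNPUL1 by -0.01. SRSF11 and HNRNPUL1 were the 2 members below 0. Other uncalled members differed more, such as SRSF8 with means of 26.8 CPM in PE and 31.4 in PM, and HNRNPA1L2 with 72.1 and 82.3. At an unadjusted p under 0.05, edgeR called 25 of all members higher and 0 lower. The difference between the lines was also seen with the CHD1 hairpins, in libraries other than the controls. With hairpin A, 18 members were higher in PM and 1 lower (background 20.1% and 19.8%), and with hairpin B 19 were higher and 0 lower (background 15.7% and 14.5%). For hairpin B, edgeR at an unadjusted p under 0.05, DESeq2 and limma-voom also called 0 lower, beside 22, 19 and 20 higher. The 1 lower member, with hairpin A, was HNRNPUL1, at -0.23. Of the higher members, 15 were higher under both hairpins, which is 83.3% of the first list and 78.9% of the second. The matching overlap over all genes was not counted.

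The promoter sequences of some hnRNP genes hold the canonical E-box, the letters CACGTG that MYC with MAX is known to bind, and are shown because these genes differ between a line transformed by MYC and one that is not. In the RefSeq table of 300-base windows (250 bases before to 50 after the start, GRCh38.p14), 31 of 35 members matched, and HNRNPA1, HNRNPA1L3, SRSF2 and TRA2A had no entry. CACGTG reads the same on both strands and was found in 6 of 31 windows, or 19.4%, against 2548 of 35116 windows in the whole table, or 7.26%. All 6 were hnRNP genes: HNRNPA3, HNRNPD, HNRNPDL, HNRNPH3 and HNRNPM, which were called higher in PM (HNRNPDL and HNRNPH3 not in most other settings), and HNRNPUL1, which was not called. Of all 35 members, 20 were called higher in PM. Among these were HNRNPF, HNRNPAB, SRSF1 and SRSF7, whose windows lack CACGTG. Whether the letters go with a higher level in PM was not tested. The members are all annotated as protein-coding, whereas the whole table was used without a choice of gene type. The shares of 19.4% and 7.26% are therefore not of like sets. No share was counted over protein-coding genes alone, so whether members carry CACGTG more often than such genes was not tested. A match describes these letters and is not evidence of binding. Upstream is relative to the start that each window uses. The HNRNPDL stretch lies within that gene's RefSeq span of 82422564 to 82430462. The stretches around the upstream matches, 5′ to 3′ on the gene's strand with the E-box in capitals, are as follows.
HNRNPA3 (chr2:177212708-177212743, plus strand): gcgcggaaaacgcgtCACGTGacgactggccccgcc
HNRNPD (chr4:82373998-82374033, minus strand): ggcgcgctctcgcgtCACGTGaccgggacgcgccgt
HNRNPDL (chr4:82430361-82430396, minus strand): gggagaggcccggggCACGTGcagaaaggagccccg
HNRNPH3 (chr10:68331628-68331663, plus strand): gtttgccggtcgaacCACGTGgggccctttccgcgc
HNRNPM (chr19:8444918-8444953, plus strand): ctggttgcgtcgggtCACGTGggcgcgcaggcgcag

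**Figure D2:**
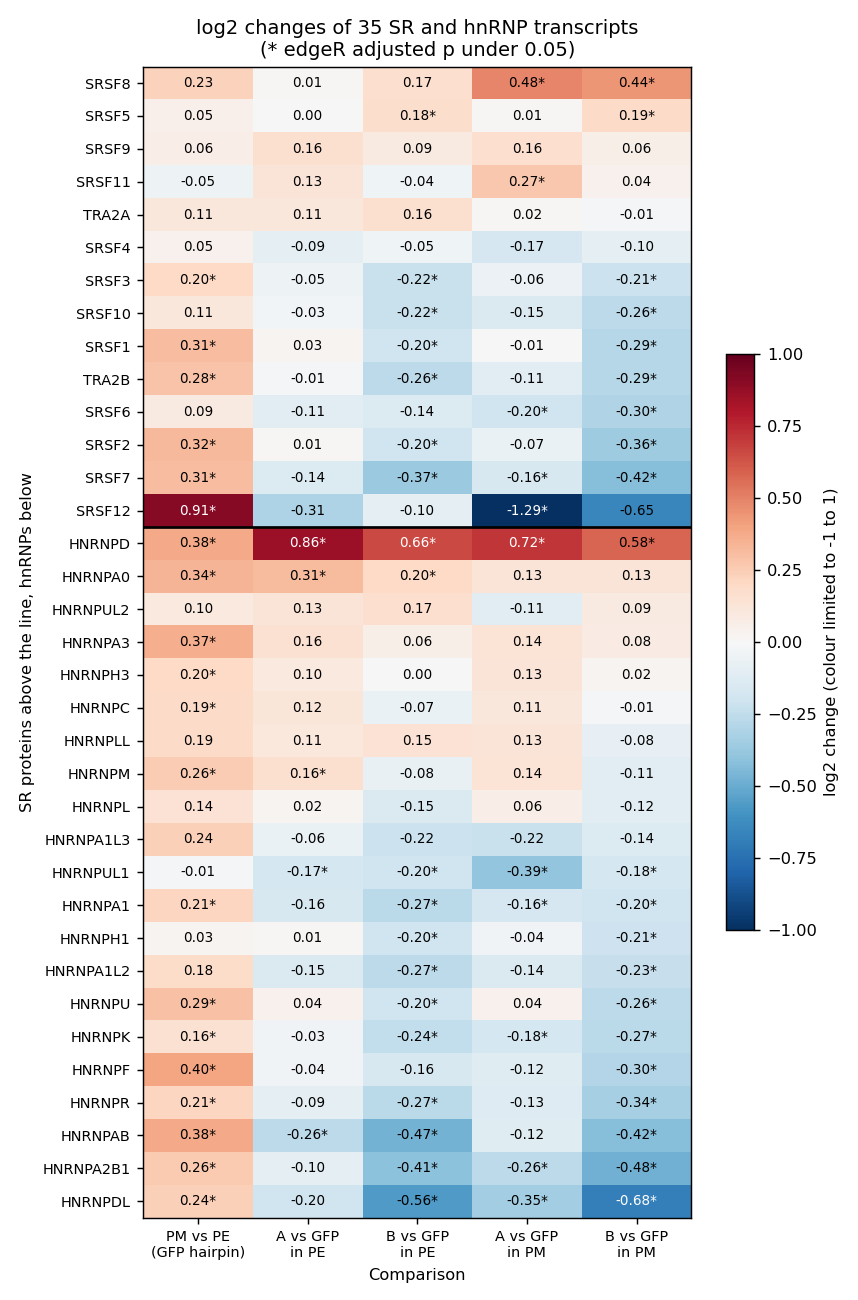
log2 changes of the 35 members (SR proteins above the line, hnRNPs below it) for the control cells of PM against those of PE and for CHD1 hairpins A and B against the control within PE and PM; colour shows the log2 change, limited to -1 to 1, and stars mark an edgeR adjusted p under 0.05. The first column holds 20 higher and 0 lower calls, and HNRNPD is the member with a star and a positive value in all 5 columns.

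After CHD1 knockdown, HNRNPD rose under both hairpins in both lines, and no other member did so. In PE its level went from 242, 262, 262 and 284 CPM in the controls to 472, 484, 474 and 478 for hairpin A and 415, 439, 372 and 438 for hairpin B. Every knockdown library lay above every control library. The log2 changes were 0.86 (SE 0.06, edgeR adjusted p = 1.59e-12) and 0.66 (edgeR adjusted p = 2.54e-10). In PM the controls read 319, 338, 330 and 377 CPM, hairpin A libraries 561, 598, 558 and 528, and hairpin B libraries 516, 526, 486 and 517. The groups again did not overlap, and the changes were 0.72 (edgeR adjusted p = 3.75e-11) and 0.58 (edgeR adjusted p = 3.15e-09). The mean effect of the hairpins was 0.76 in PE and 0.65 in PM, and the difference between the lines, -0.11 (SE 0.07, 95% interval -0.27 to 0.05), did not pass (edgeR adjusted p = 0.53).

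HNRNPDL, the paralog of HNRNPD that lies close to it on chromosome 4, took the other direction. Both genes are on the minus strand in GRCh38.p14, HNRNPD at 82352498 to 82373991 and HNRNPDL at 82422564 to 82430462. In PM, HNRNPDL read 320, 324, 319 and 358 CPM in the controls, 261, 266, 233 and 278 for hairpin A and 212, 205, 177 and 229 for hairpin B. All control libraries lay above all knockdown libraries, and the log2 changes were -0.35 (edgeR adjusted p = 0.00181) and -0.68 (edgeR adjusted p = 1.61e-07). In PE the values were 267, 265, 260 and 325 CPM in the controls, 242, 246, 222 and 264 under hairpin A, which overlapped the controls, and 194, 188, 159 and 215 for hairpin B, which did not. Hairpin A gave -0.20 in PE (edgeR adjusted p = 0.0999) and hairpin B -0.56 (edgeR adjusted p = 4.05e-06). With a block for replicate number, HNRNPDL was called under both hairpins in PE.

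Within each library the count of HNRNPD was divided by that of HNRNPDL, a ratio that needs no scaling between libraries and is not corrected for length. It was 0.945 ± 0.0656 in PE controls (SD, n = 4), 1.96 ± 0.131 for hairpin A and 2.21 ± 0.153 for hairpin B. In PM it was 1.03 ± 0.0242, 2.17 ± 0.208 and 2.50 ± 0.211 in the same order. The pair was chosen for this ratio after the changes of both genes were seen, so no test is given. HNRNPD shares 203 annotated exonic bases with an antisense transcript on the opposite strand, and the strand setting of the counting is not given in the sources used here.

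**Figure D3:**
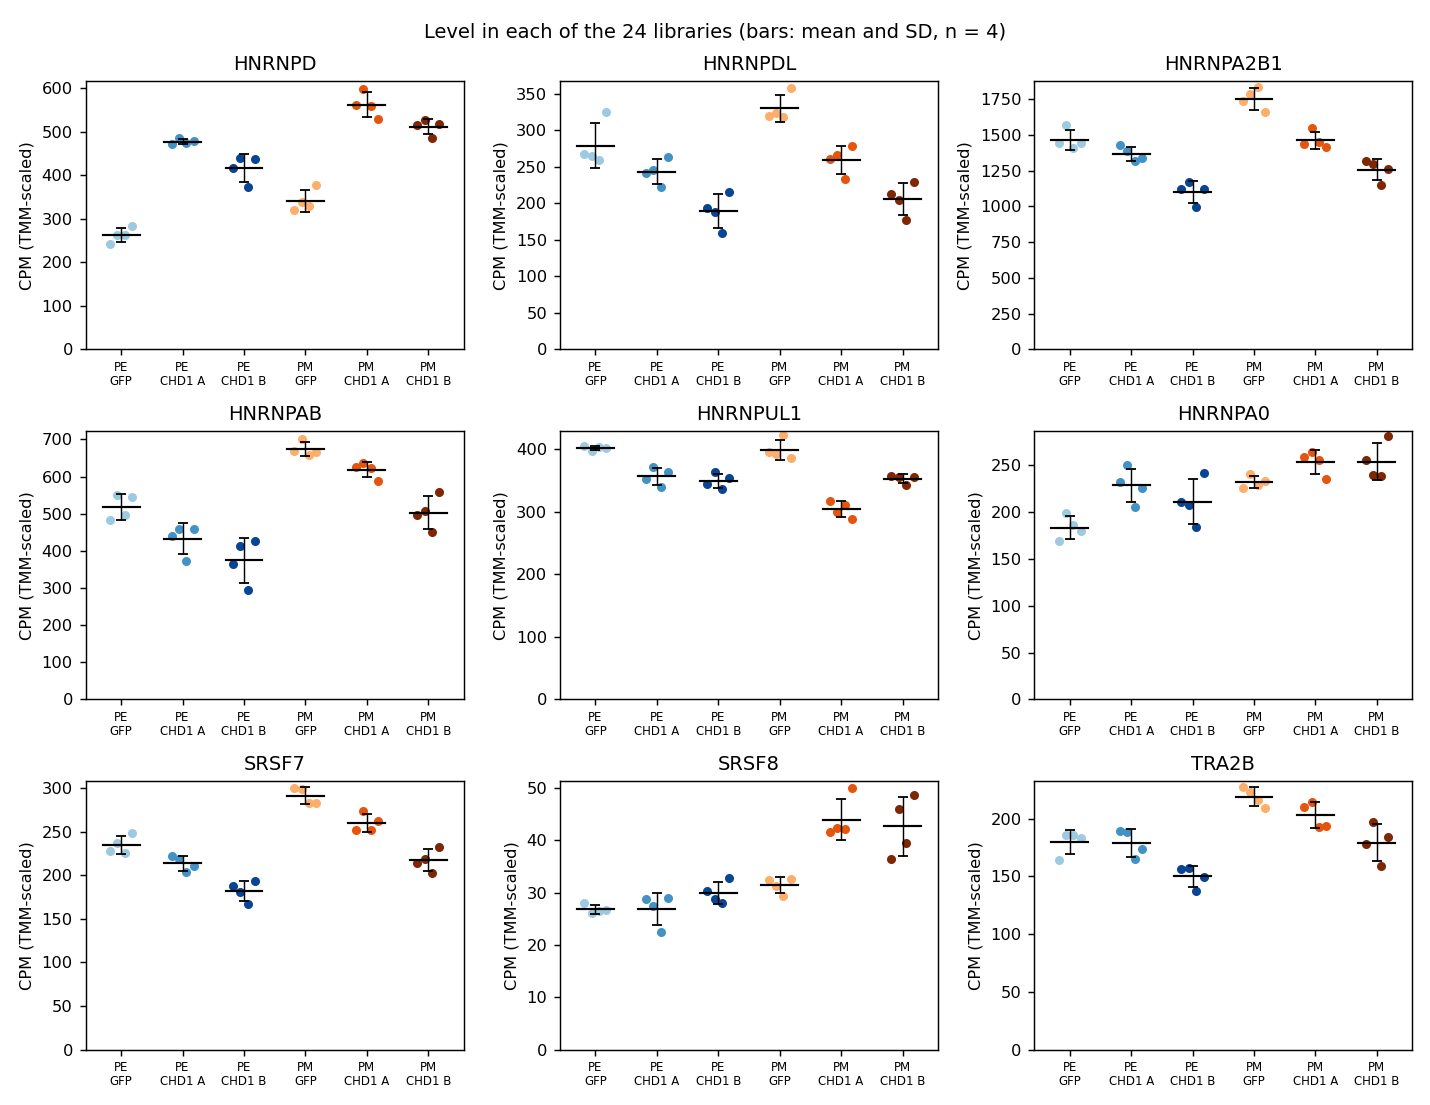
Level of 9 members in each of the 24 libraries, in CPM after TMM scaling, by line and hairpin; points are libraries and bars show the mean and SD of 4. HNRNPD with the CHD1 hairpins lies above its controls in both lines (means 477 and 416 against 263 CPM in PE), while HNRNPDL, HNRNPA2B1 and SRSF7 are lowest with hairpin B in each line.

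In PE, 2 members were higher and 2 lower under both CHD1 hairpins, against 6.75% and 5.58% of all genes, 12.3% in all. All 4 were hnRNPs. The split was 2 higher and 4 lower with DESeq2 size factors and 2 and 8 with library sizes alone, and without replicate 4 of the GFP hairpin only HNRNPD and HNRNPUL1 were called. Both hairpins are compared with the same 4 control libraries, so a call under both is not a repeat in separate controls. The median of the mean effect was -0.09 over the members and -0.00 over all genes. In the main fit no SR protein gene passed under both hairpins in PE. The counts, higher and lower, were 0 and 0 with edgeR, 0 and 1 at an unadjusted p under 0.05, 0 and 1 with DESeq2 and 0 and 0 with limma-voom. With a block for replicate number, SRSF7 was called lower under both hairpins in PE.

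HNRNPAB fell in PE from 482, 551, 496 and 544 CPM to 440, 459, 372 and 459 with hairpin A and 364, 412, 293 and 427 with hairpin B. No knockdown library reached the lowest control, and the changes were -0.26 (SE 0.08, edgeR adjusted p = 0.0243) and -0.47 (edgeR adjusted p = 5.16e-05). HNRNPUL1, an hnRNP U-like protein with roles in the DNA damage response, moved from 405, 397, 404 and 401 CPM to 352, 371, 340 and 364 and to 344, 363, 337 and 354. These groups did not overlap with the controls, although the steps were small, -0.17 (edgeR adjusted p = 0.0136) and -0.20 (edgeR adjusted p = 0.00254). HNRNPA0, encoded by an intronless gene and known to bind AU-rich elements of inflammatory mRNAs, went from 169, 199, 187 and 179 CPM to 232, 250, 206 and 226 with hairpin A and 211, 208, 184 and 242 with hairpin B. Hairpin A libraries were all above the controls, while the lowest hairpin B library lay among them, and the changes were 0.31 (edgeR adjusted p = 0.00149) and 0.20 (edgeR adjusted p = 0.0368). HNRNPA0 was not called under both hairpins in 8 of 33 other settings, among them limma-voom and the fit without the 3 libraries that stood apart.

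In PM, 2 members were higher under both hairpins, HNRNPD and SRSF8, and 7 were lower, against 6.46% and 6.89% of all genes, 13.3% in all. The lower ones were HNRNPDL, HNRNPA2B1, HNRNPUL1, HNRNPA1, HNRNPK, SRSF6 and SRSF7. The median of the mean effect was -0.14 over the members and -0.01 over all genes. By family, 1 SR protein gene was higher and 2 lower of 14, and 1 hnRNP gene was higher and 5 lower of 21. On GRCh38.p14, HNRNPA2B1 lies on the minus strand of chromosome 7 at 26189927 to 26200746, SRSF8 on the plus strand of chromosome 11 at 95066877 to 95071225 and HNRNPUL1 on the plus strand of chromosome 19 at 41262557 to 41307787. In the main fit HNRNPD and HNRNPUL1 were the members called in the same direction under both hairpins in both lines, which use separate libraries. With a block for replicate number, HNRNPDL, HNRNPA1 and SRSF7 were also called lower under both hairpins in both lines. HNRNPD is 50% of the higher members of each line, and HNRNPUL1 is 50% of the lower members of PE and 14.3% of those of PM. Such shares were not counted over all genes. With no filter on low counts HNRNPUL1 was not called under both hairpins in either line, whereas HNRNPD kept its call in both in all 33 other settings.

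SRSF8, a gene close in sequence to SRSF2, rose in PM from 32.4, 31.3, 29.4 and 32.6 CPM to 41.5, 42.3, 42.1 and 49.9 with hairpin A and 36.5, 45.9, 39.5 and 48.6 with hairpin B. All knockdown libraries were above all controls, by 0.48 (edgeR adjusted p = 9.3e-05) and 0.44 (edgeR adjusted p = 0.000316). Reads may be shared between these near copies, and SRSF2 itself changed by -0.07 without passing and by -0.36 in the same comparisons. HNRNPA2B1, which reads methylated RNA and sorts RNA into vesicles, had a mean of 1753 ± 75.8 CPM in PM controls (SD, n = 4, lowest 1656), 1462 ± 57.8 for hairpin A and 1257 ± 74.2 for hairpin B (highest 1546 and 1315). Controls thus lay above both knockdown groups, and the changes were -0.26 (edgeR adjusted p = 0.000482) and -0.48 (edgeR adjusted p = 3.87e-08). SRSF7 in PM went from 301, 299, 283 and 283 CPM to 253, 274, 252 and 262 and to 214, 219, 203 and 233, changes of -0.16 (edgeR adjusted p = 0.0311) and -0.42 (edgeR adjusted p = 5.71e-07) between groups that did not overlap. The call of SRSF7 under both hairpins was lost in 6 of 33 other settings, those of SRSF6 and HNRNPA1 in 4 and 5, and those of SRSF8, HNRNPDL, HNRNPA2B1 and HNRNPK in 0.

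HNRNPUL1 in PM was the 1 member of these whose fall was greater with hairpin A. Its CPM was 395, 393, 422 and 386 in the controls, 317, 299, 311 and 289 for hairpin A and 357, 356, 342 and 356 for hairpin B. The 3 groups were separate, with hairpin B between the others. The changes were -0.39 (edgeR adjusted p = 2.25e-07) and -0.18 (edgeR adjusted p = 0.00729). SRSF6, which regulates splicing in wound repair and epidermal homeostasis, changed by -0.20 (edgeR adjusted p = 0.0299) and -0.30 (edgeR adjusted p = 0.00106), and HNRNPK, a poly(C)-binding member, by -0.18 and -0.27. HNRNPA1 changed by -0.16 (edgeR adjusted p = 0.0315) and -0.20 (edgeR adjusted p = 0.00889).

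The hairpins were also counted one by one against the GFP hairpin. In PE, 3 members were higher and 2 lower with hairpin A (10.9% and 9.33% of all genes), and 3 were higher and 16 lower with hairpin B (13.6% and 13.2%). In PM, 3 were higher and 8 lower with hairpin A (13.4% and 14.3%), and 3 higher and 18 lower with hairpin B (13.6% and 14.4%). With hairpin A the split moved with the scaling: in PE it was 2 and 4 with DESeq2 size factors and 2 and 8 with library sizes alone, and in PM 6 and 8, and 3 and 9. The 16 members lower with hairpin B in PE were 100% contained in the 18 lower with it in PM, where they made up 88.9%. How far such calls overlap over all genes was not counted, so these shares cannot be read as particular to the members. The groups compared share no library, although the same fit of all libraries gave both sets of calls.

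The hairpins were then set against each other. The difference is not taken against the controls, although their libraries enter the shared fit behind its p-values. Without replicate 1, 3 or 4 of the PM controls, HNRNPL lost its call in PE. In PE, 15 members were lower and 1 higher with hairpin B than with hairpin A, against 9.09% and 7.48% of all genes, 16.6% in all. In PM, 15 were lower and 3 higher, against 13.5% and 12.7%, 26.3% in all. The members' median was -0.17 in PE and -0.12 in PM, and that of all genes 0.01 and 0.03. Without replicate 1 of hairpin A in PE, 9 members were called in PE in place of 16, and without replicate 3 of hairpin B there 10. Without replicate 2 of hairpin A in PM, 11 were called in PM in place of 18, and 11 also when the 3 libraries that stood apart were left out. Each line gave 5 SR protein genes and 10 hnRNP genes lower with hairpin B.

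11 members were lower with hairpin B in both lines, 73.3% of each list: HNRNPA2B1, HNRNPDL, HNRNPH1, HNRNPL, HNRNPM, HNRNPR, HNRNPU, SRSF1, SRSF2, SRSF7 and TRA2B. No such overlap was counted over all genes. HNRNPA2B1, HNRNPM, HNRNPU, SRSF1 and SRSF7 were called in both lines in all 33 other settings, whereas HNRNPL was lost in 16 settings in PE and 5 in PM, and TRA2B in 9 in PM. HNRNPA2B1 was at 1427, 1384, 1317 and 1337 CPM with hairpin A in PE and at 1123, 1171, 992 and 1119 with hairpin B. All hairpin B libraries lay below all hairpin A libraries, at -0.31 on the log2 scale (edgeR adjusted p = 0.000118), and in PM the difference was -0.22 (edgeR adjusted p = 0.00357). TRA2B stood at 189, 188, 165 and 173 CPM and at 157, 157, 138 and 150, again without overlap, a difference of -0.25 (edgeR adjusted p = 0.00673). HNRNPDL differed by -0.37 in PE (SE 0.08, edgeR adjusted p = 0.00213), with hairpin A libraries all above those of hairpin B, and by -0.33 in PM (edgeR adjusted p = 0.00298). Without the 3 libraries that stood apart, the difference of HNRNPDL in PM was -0.22 and lost its call (edgeR adjusted p = 0.0774), and HNRNPR, SRSF2 and TRA2B lost theirs in PM as well.

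HNRNPU, a nuclear matrix protein that binds RNA and organises chromatin, read 1061, 1057, 1046 and 1033 CPM with hairpin A in PM and 844, 876, 794 and 880 with hairpin B. Its groups were far apart, at -0.31 (edgeR adjusted p = 3.09e-05). HNRNPAB in PM differed between hairpins by -0.30 (edgeR adjusted p = 0.00712), from 625, 635, 624 and 589 CPM to 496, 506, 451 and 557. SRSF5 was the member higher with hairpin B in both lines, by 0.17 in PE (edgeR adjusted p = 0.0498) and 0.18 in PM (edgeR adjusted p = 0.0288). These calls were lost in 11 of 33 other settings in PE and 7 in PM, in both lines with no filter on low counts. HNRNPUL1 and HNRNPUL2 were higher with hairpin B in PM, by 0.21 (edgeR adjusted p = 0.00146) and 0.20 (edgeR adjusted p = 0.0451), the second lost in 10 of 33 settings.

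CHD1 itself differed between the hairpins by -0.06 in PE (edgeR adjusted p = 0.769) and -0.08 in PM (edgeR adjusted p = 0.648). MYC differed in PM: it was at 564 ± 28.2 CPM for hairpin A and 392 ± 12.3 for hairpin B, a log2 difference of -0.52 (edgeR adjusted p = 3.75e-08), and at 258 ± 8.3 and 275 ± 24 in PE, 0.09 (edgeR adjusted p = 0.359). The part of MYC in the members' difference was not tested.

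**Figure D4:**
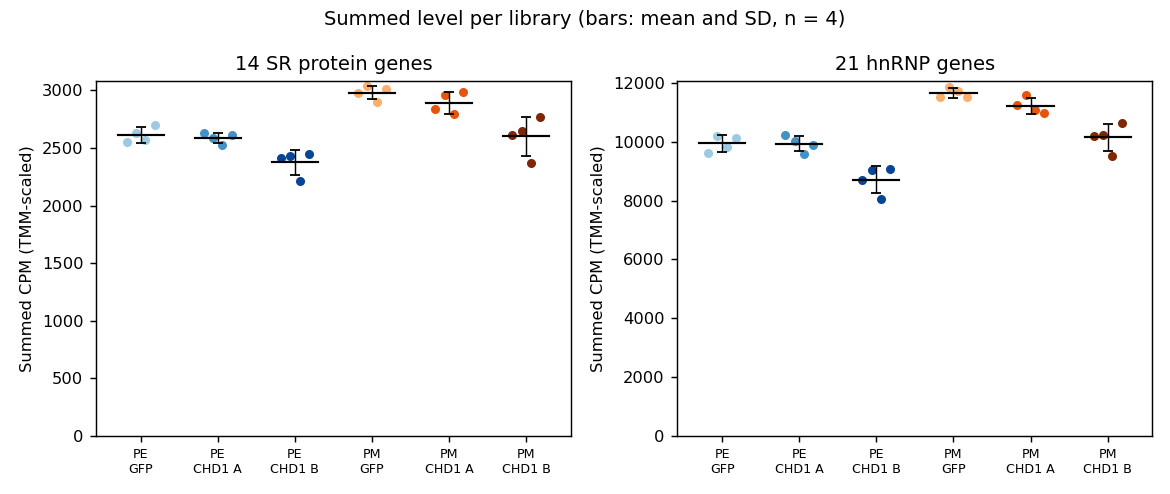
Summed CPM of the 14 SR protein genes (left) and the 21 hnRNP genes (right) in each library, by line and hairpin; points are libraries and bars show the mean and SD of 4. In each line the sum is lowest with hairpin B, and the hnRNP sum with the GFP hairpin is 9946 CPM in PE and 11663 in PM.

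The summed levels carry the same values in one number per library. The SR protein genes summed to 2611 ± 67.9, 2587 ± 46.5 and 2376 ± 108 CPM in PE (SD, n = 4) for GFP, A and B in that order, and to 2981 ± 59.1, 2892 ± 92.6 and 2601 ± 167 in PM. The hnRNP genes summed to 9946 ± 278, 9936 ± 262 and 8715 ± 467 CPM in PE and to 11663 ± 176, 11223 ± 269 and 10150 ± 472 in PM. In PM with hairpin B both sums were near those of PE control cells. Abundant members such as HNRNPA1 and HNRNPA2B1 weigh most in these sums, and no test is given for them.

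Whether the knockdown acted differently in PM than in PE was tested as the difference between the lines' effects. For the mean of the hairpins, 0 members were called higher and 0 lower (1.77% and 2.16% of all genes, 3.93% in all), with 1 and 0 at an unadjusted p under 0.05, 1 and 0 with DESeq2 and 0 and 0 with limma-voom. For hairpin A, SRSF8 was called, with 1 higher and 0 lower (2.76% and 3.9% of all genes). For hairpin B, edgeR called 0 and 0 (1.47% and 0.98% of all genes), with 1 and 1 at an unadjusted p under 0.05 and 0 and 0 with each of DESeq2 and limma-voom. SRSF8 in PE was at 28, 26.2, 26.4 and 26.7 CPM in the controls, 28.7, 27.5, 22.4 and 29 for hairpin A and 30.4, 28.8, 28 and 32.8 for hairpin B, so that its hairpin A libraries lay on both sides of the controls, unlike those of PM.

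The difference between the lines for SRSF8 was 0.47 for hairpin A (SE 0.13, edgeR adjusted p = 0.0238) and 0.37 for the mean effect (SE 0.12, 95% interval 0.13 to 0.61, edgeR adjusted p = 0.0608). It was called for the mean effect in 6 other settings that keep every library. HNRNPUL1 differed for hairpin A by -0.22 without passing (edgeR adjusted p = 0.0598). For SRSF12, the change in PM was -1.29 with hairpin A (edgeR adjusted p = 0.00232) and -0.65 with hairpin B (edgeR adjusted p = 0.131), from 3.35, 2.76, 2.96 and 3.17 CPM to 1.44, 1.57, 0.733 and 1.3 and to 1.79, 2.41, 2.09 and 1.52. Neither knockdown group of SRSF12 overlapped the controls in PM. In PE its changes were -0.31 with hairpin A and -0.10 with hairpin B, without passing, and both groups overlapped the controls. The difference between the lines was not called for SRSF12.

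Some values are uncertain through shared sequence. The table held 74 rows of HNRNPA1 pseudogenes, 11 of them with at least 240 counts, and together they held 14.5% to 20.8% of HNRNPA1's own count in a library, with group medians between 18.0% and 19.0%. No source used here states how reads that map to several places were counted, so HNRNPA1, HNRNPA1L2 and HNRNPA1L3 may share reads with these copies. Of the 34 members with annotated exons, 8 share exonic bases with another gene on the same strand and 12 with one on the opposite strand. The longest stretches were 3502 bases of HNRNPU with COX20, 1729 of SRSF9 with GATC and 1106 of SRSF2 with MFSD11 on opposite strands, and on the same strand 2391 of HNRNPUL2 with HNRNPUL2-BSCL2 and 1890 of SRSF1 with AC015813.2.

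Other genes of RNA splicing were counted from lists of known members, to be read against the shares of all genes called: 14.1% higher and 11.4% lower for PM against PE, and under both hairpins 6.75% and 5.58% in PE and 6.46% and 6.89% in PM. Of 15 hnRNP proteins that carry other symbols, 11 were higher in PM than in PE with the GFP hairpin and 0 lower, by 0.34 for KHSRP, 0.31 for PTBP1 and 0.28 for SYNCRIP. Under both CHD1 hairpins 0 were higher and 2 lower in each line: RALY, a relative of HNRNPC, by mean changes of -0.32 in PE and -0.42 in PM, and PTBP3, by -0.30 and -0.20. Of 33 core spliceosome genes, 25 were higher in PM and 0 lower, led by SNRPF, SNRPG and SNRPA1 at 0.51, 0.45 and 0.45, and the list's median of 0.26 was near that of the members. Under both hairpins 4 of the 33 were higher and 0 lower in PE and 1 higher and 1 lower in PM, and SF3B6, a subunit that sits at the branch point, rose in both, by 0.31 and 0.23.

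Of 22 SR-related proteins, 6 were higher in PM and 0 lower, among them U2AF1, which recognises the end of the intron, at 0.41, PNN at 0.39 and RNPS1 at 0.34. Under both hairpins 0 rose, while ARGLU1 and PNN changed by -0.27 each in PE, and SREK1, ARGLU1 and RBM39 by -0.32, -0.29 and -0.18 in PM. Of 10 SR protein kinases and nuclear import receptors, TNPO3, the import receptor of SR proteins, was the 1 higher in PM, at 0.20. Of these 10 genes, 0 were lower. SRPK1, the cytoplasmic SR protein kinase, changed by -0.37 and TNPO1 by 0.31 under both hairpins in PE, and CLK2, a nuclear SR protein kinase, by -0.20 in PM, with 0 higher. All 7 genes of arginine methylation, a modification of hnRNPs, were higher in PM, with a median of 0.50 and the methyltransferases PRMT6, PRMT1 and PRMT5 at 0.69, 0.67 and 0.57. Under both hairpins 0 of the 7 passed in either line with edgeR, and in PM 1 was higher at an unadjusted p under 0.05, 1 with DESeq2 and 0 with limma-voom.

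Of 15 genes of nonsense-mediated decay, 7 were higher in PM and 1 lower, with EIF4A3 and MAGOHB of the exon junction complex at 0.40 and 0.38 and SMG6, an endonuclease, at -0.33. CASC3, another exon junction component, rose under both hairpins in both lines, by 0.61 in PE and 0.57 in PM, and SMG9 and UPF3B fell in PE, by -0.31 and -0.30 on the log2 scale. Of 13 tissue-restricted splicing regulators 10 could be tested. ESRP1 and ESRP2, the epithelial splicing regulators, were higher in PM by 1.37 and 0.91. In PE they changed under both hairpins by means of -3.77 and -0.66, with KHDRBS3 at -1.70. The mean of ESRP1 joins unlike changes, -1.93 with hairpin A and -5.62 with hairpin B. In PM, MBNL1 and RBFOX2 changed by -0.29 and -0.26 under both hairpins. The counts of 0 given for these lists were 0 also at an unadjusted p under 0.05, with DESeq2 and with limma-voom, except the arginine methylation count given above and the SR protein kinases and importins in PM, where 1 was higher unadjusted and with DESeq2. TNPO3 was not called in PM against PE by DESeq2 or limma-voom, which gave 0 for that list.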

How the data were processed

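Per the submitters' processing notes, the authors trimmed reads with Trim Galore 0.4.0, aligned them to GRCh38 with HISAT2 2.2.1 and counted them with featureCounts, and FastQC is named too. The deposited values are whole counts per gene without scaling. The annotation, strand setting and multi-mapping treatment are stated by no source used here. Per the labels, the kit was directional with poly(A) selection. All 24 columns matched 1 sample each.

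All libraries entered 1 edgeR 4.0.16 model in R 4.3.3 with a mean for each group (TMM, filterByExpr, robust quasi-likelihood test, 18 residual degrees of freedom). The 17236 genes without a count were dropped first, and 20820 were tested. Two-sided p-values had Benjamini-Hochberg adjustment per contrast. An SE is the size of the log2 change over the square root of F. A call under both hairpins needs each to pass with the same sign, and ± values are SDs. The median biological coefficient of variation was 18.6%. Between replicates, chi-square over degrees of freedom was 5.89 to 49.2, so none was a repeat of another.

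The members and lists were chosen with earlier results of these data known. Members named with full values were, for each comparison, the called ones with the largest changes, at most 5 for the knockdown in a line and for PM against PE and 3 for hairpin B against A. Library values beyond that (SRSF7 between the lines, HNRNPUL1 and SRSF12 in PM, HNRNPDL and SRSF8 in PE) and the HNRNPD to HNRNPDL ratio were chosen after they were seen. Other members are given with log2 changes. Up to 3 genes per other list and comparison were named, by the largest called changes. Exon lengths and overlaps came from GENCODE v29, and gene coordinates and promoter windows from RefSeq on GRCh38.p14. The alternatives were DESeq2 1.42.0 size factors and Wald test, library sizes alone, limma-voom (limma 3.58.1), no filter, a minimum of 5 CPM in 4 libraries, a replicate block, the compared groups alone, and leaving out each library. Leaving out the 3 libraries that stood apart was added after seeing the data. The procedure was tested on simulated data.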

Additional observations from a re-analysis of the deposited data

Results flagged for a closer look

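For 15 series of values in 6 groups, 90 in all, the highest or lowest of 4 libraries was compared with the others, and 7 had a gap to the nearest library, as a share of the group's range, above Dixon's 95% critical value. Chance alone gives about 1 in 20. With the GFP hairpin, replicate 4 was the high library for HNRNPDL in both lines, at 325 CPM in PE (nearest 267) and 358 CPM in PM (nearest 324), and replicate 1 was the low one for TRA2B in PE, at 164 CPM (nearest 183). HNRNPU was at 811 CPM in replicate 3 of hairpin A in PE (nearest 869), and HNRNPUL1 at 342 CPM in replicate 3 of hairpin B in PM (nearest 356). SRSF8 was at 49.9 CPM in replicate 4 of hairpin A in PM (nearest 42.3), a library that stood apart by its genes detected. The summed SR protein genes were at 2215 CPM in replicate 3 of hairpin B in PE (nearest 2411).

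The effect of hairpin A on SRSF8 differed between the lines by 0.47 on the log2 scale (edgeR adjusted p = 0.0238). It was called under all 7 alternatives that keep every library, at 0.45 to 0.53. Those settings all hold replicate 4 of hairpin A in PM, where SRSF8 was at 49.9 CPM (nearest 42.3). No value without that library is given here for this difference.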

How the results depend on the processing

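Members called under both hairpins in PE numbered 4, and 10 with library sizes alone, 8 with a minimum of 5 CPM in 4 libraries and 7 with the replicate block. Leaving out 1 library gave 2 to 6. For the difference between the lines, 0 became 1, SRSF8, with the replicate block, DESeq2 size factors, the DESeq2 Wald test, library sizes alone, no filter and the 5 CPM filter, and leaving out 1 library gave 0 to 1. Hairpin B against A gave 16 in PE, or 9 to 18 with 1 library left out. In PM it gave 18, or 11 with no filter, 11 without the 3 libraries that stood apart, and 11 to 19 with 1 left out. Members called under both hairpins in PM numbered 9, with 6 to 10 elsewhere, and PM against PE 20, with 14 to 24. No named member changed direction. HNRNPDL between the hairpins in PM lost its call without the 3 libraries (-0.22, adjusted p = 0.0774), and SRSF12 between the lines lost its call in 11 settings, with no filter at adjusted p = 0.132. The causes were not tested.

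Same-numbered libraries of 2 groups had a median correlation of their deviations of 0.133 over 60 pairs, and the lowest was 0.00258. Pairing was taken only where all such correlations exceeded 0.1. As 19 were at or under 0.1, the main model does not pair libraries by number. Different-numbered libraries had a median of -0.0506, and 22 of 24 libraries were closest to their own number, a hint from the data and not a stated pairing. The S numbers in the column names also run in order of replicate number across the 6 groups. No source used here states what they stand for, and the main model holds no term for them. Under the block HNRNPDL, HNRNPA1 and SRSF7 were also called under both hairpins in PE. The block raised PM against PE from 20 to 24. A fit of the compared groups alone was not run for the difference between the lines, which uses all 6.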
